A study of Homo sapiens with 33 samples.

Results

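Genes of cholesterol and fatty acid synthesis were followed across 11 high-grade serous ovarian carcinoma (HGSOC) cell lines. The 30 genes were chosen by symbol, and all 30 were found among the 29744 genes of the expression tables. They comprised 18 sterol enzymes, 7 fatty acid enzymes and 5 genes of control and sterol transfer (SREBF1, SREBF2, SCAP, INSIG1 and STARD4). Each line was sequenced in 3 libraries, 33 in all. OVCAR3 and OVCAR4 are established HGSOC lines that were treated as platinum-sensitive. Their resistant derivatives OVCAR3 ResA, OVCAR3 ResB, OVCAR4 ResA and OVCAR4 ResB were independent lines obtained by repeated short exposures to rising cisplatin with recovery in between. PEA1 and PEA2 came from one patient at different clinical times, as did PEO1, PEO4 and PEO6, with PEA1 and PEO1 taken as sensitive and PEA2, PEO4 and PEO6 as resistant. The labels named the line and the replicate, and the 4 sensitive and 7 resistant roles were taken from the study's text. No treatment of the sequenced cultures was given. Per the study's methods OVCAR3 and OVCAR4 were grown with insulin, and OVCAR3 also with the larger serum supplement and sodium pyruvate. The PEA and PEO lines were grown with sodium pyruvate and no listed insulin. The medium of the derivatives was not listed separately, so medium and family cannot be told apart where levels of the OVCAR3 or OVCAR4 family are set beside those of another family. The PEA and PEO lines shared one listed medium.

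Cholesterol is built from acetyl-CoA through mevalonate, isoprenoid units, squalene and lanosterol, and each step has its own enzyme. Fatty acids are built from the same acetyl-CoA by carboxylation, chain synthesis, elongation and desaturation. Both sets of genes are driven by the sterol regulatory element-binding proteins, which SREBF1 and SREBF2 encode. SCAP escorts these proteins out of the endoplasmic reticulum when sterol is scarce, and INSIG1 holds the complex back when sterol is plentiful. Tumour cells draw on both pathways for new membrane.

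Libraries held 18058985 to 43394009 estimated counts, with a median of 30611448, and no member fell below 54 estimated counts in any library. Levels are given as adjusted TPM, that is, TPM (transcript abundance corrected for gene length and library total) divided by a scaling factor for each library, so that levels can be compared between genes and between lines. Nothing in the labels said whether replicates were separate cultures, so p-values measure only the spread between these libraries. Of the HGSOC markers, 8 epithelial genes summed to at least 2190 adjusted TPM in every library but those of PEA1, where the sum was 361 to 471. In PEA1, EPCAM was at 13.1 ± 2.61, KRT7 at 2.78 ± 0.693 and MUC16 at 0.0617 ± 0.0347 adjusted TPM (SD, n = 3 each). Most of the epithelial sum in PEA1 came from the other markers (PAX8, WT1, KRT8, KRT18 and CDH1), and 1 of the 8 had a mean below 1. COL1A1 accounted for nearly all of a fibroblast marker sum of 71.6 to 87.1 in PEA1, and DCN, LUM and COL1A2 were at 3 counts or fewer.

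Calls went in both directions across the resistant lines. In the 7 comparisons of a resistant line with the sensitive line of its family, 65 of 210 member-by-pair tests were called at a Benjamini-Hochberg adjusted p under 0.05 (DESeq2 over all genes), 27 higher and 38 lower in the resistant line. These were 12.9% and 18.1% of the members' tests, beside 15% and 14.8% of the tests of all genes in the same 7 pairs. Sterol enzymes gave 16 higher and 23 lower calls of 126 tests, fatty acid enzymes 5 and 9 of 49, and the control genes 6 and 6 of 35. At least 1 call was made for 27 members (90%, beside 86.6% of all genes), and none for MVK, FDPS or SCAP. No member was called in one direction in 5 or more of the 7 pairs, against 0.682% of all genes called higher and 0.61% called lower that often. For 16 of the 30 members a higher call in some pair stood beside a lower call in another, where the share over all genes was 38.4%. ACAT2, the thiolase that starts sterol synthesis, and ELOVL6, which elongates saturated fatty acids, were each called lower in 3 pairs and higher in none. The share of all genes with this pattern was not counted. The ELOVL6 calls in OVCAR4 ResA and OVCAR4 ResB share the OVCAR4 libraries, and the ACAT2 call in OVCAR3 ResA held in 4 of 11 alternative fits.

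**Figure D1:**
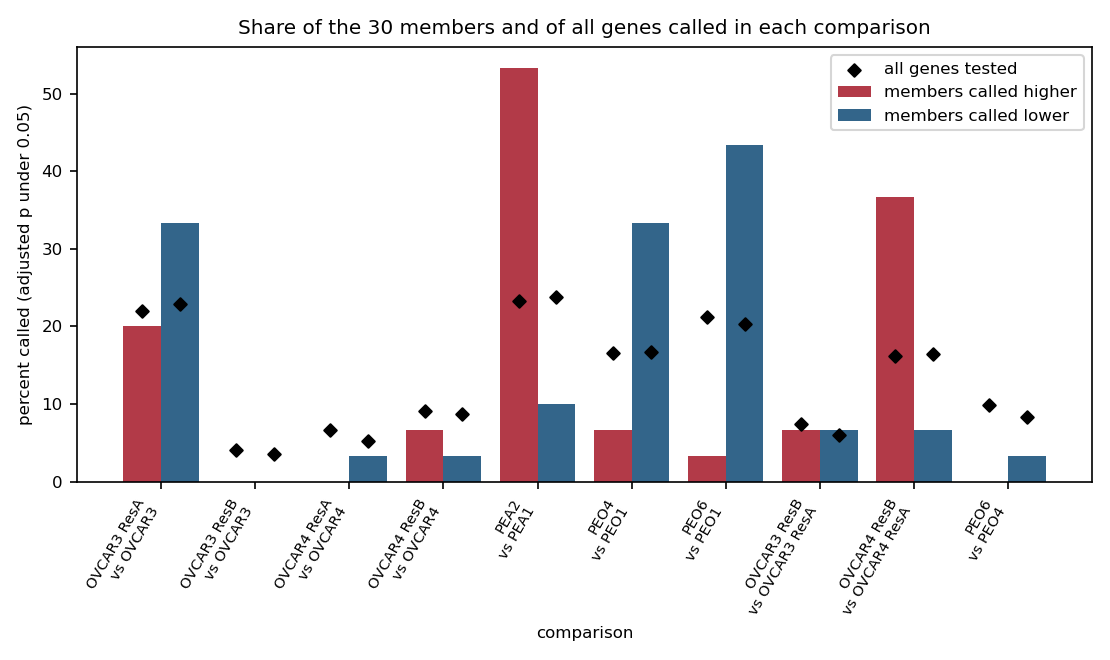
Percent of the 30 members called higher (red bars) or lower (blue bars) at an adjusted p under 0.05 in each of 10 comparisons of 2 lines, with the percent of all tested genes called in the same direction as black diamonds. The red bar of PEA2 vs PEA1 and the blue bars of PEO4 and PEO6 vs PEO1 stand above their diamonds, and OVCAR3 ResB vs OVCAR3 has no bar.

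With the line as the unit and family as a covariate, no member was called between resistant and sensitive lines (DESeq2 on counts summed over replicates, 11 lines), and the share of all genes called was 0.13% higher and 0.156% lower. Of the members, 3 had an unadjusted p under 0.05, namely ACAT2 (log2 fold change -0.52 ± 0.205 SE), MVK (-0.34 ± 0.161) and ELOVL6 (-0.53 ± 0.254), with adjusted p between 0.495 and 0.779. Over all genes 5.78% had such an unadjusted p. The quasi-likelihood test of edgeR also called no member and gave 2 an unadjusted p under 0.05.

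The summed level of the 18 sterol enzymes was highest in the OVCAR4 family, at 2536 ± 202 adjusted TPM in OVCAR4, 2609 ± 265 in OVCAR4 ResA and 2607 ± 137 in OVCAR4 ResB (SD, n = 3 each), and these 3 lines overlapped on this scale. PEA2 followed at 1950 ± 206, and its 3 libraries (2135, 1987 and 1727) lay below every OVCAR4 library and above every library of the other lines. OVCAR3 (1556 ± 70.9), OVCAR3 ResB (1286 ± 172), PEA1 (1273 ± 122) and OVCAR3 ResA (1251 ± 20.2) came next, and the ranges of the last 3 overlapped. The PEO family was lowest, at 1014 ± 49.7 in PEO1, 868 ± 81.7 in PEO4 and 783 ± 168 in PEO6. PEO1 lay above PEO4 and PEO6 in every library, whereas PEO4 and PEO6 overlapped. On deposited TPM these relations changed: OVCAR4 (2263, 1856 and 2070) lay below every library of OVCAR4 ResA (2415, 3522 and 3111) and of OVCAR4 ResB (2323, 3542 and 3590) and overlapped with PEA2 (2270, 1994 and 1617), and PEO1 overlapped with PEO4 and PEO6. In bulk RNA, fewer cells with a transcript and less of it per cell cannot be told apart.

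Fatty acid enzymes were ordered differently. PEA2 was highest at 897 ± 60.2 adjusted TPM, OVCAR4 ResB was next at 863 ± 245 with libraries at 581, 984 and 1024, and PEO6 was lowest at 379 ± 134. The line next to PEO6 in the order was OVCAR3 ResA at 484 ± 50.1. Every line overlapped with its neighbours in this order, and the low library of OVCAR4 ResB was replicate 1. On deposited TPM the order turned, with OVCAR4 ResB at 1072 ± 453 above PEA2 at 900 ± 106, and OVCAR4 ResA at 752 ± 208 above OVCAR4 at 624 ± 33.3, where adjusted TPM gave 644 ± 115 and 771 ± 87.9.

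**Figure D2:**
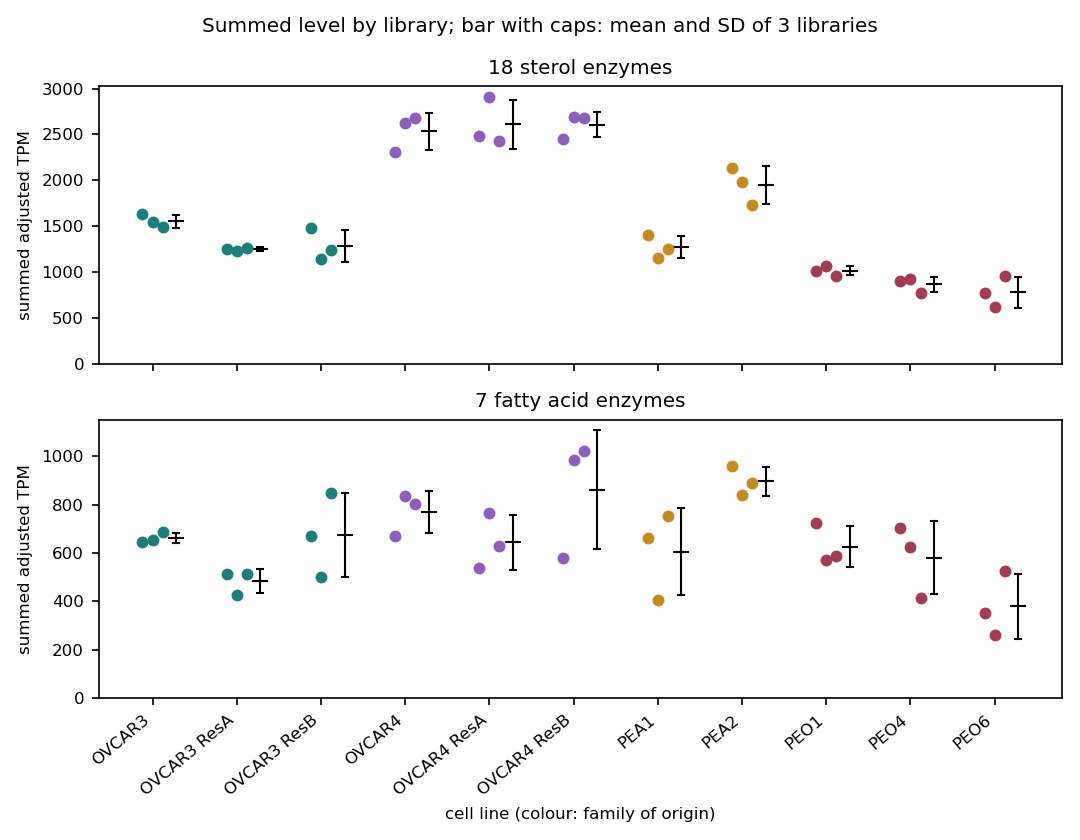
Summed adjusted TPM of the 18 sterol enzymes (upper panel) and the 7 fatty acid enzymes (lower panel) in each library of the 11 lines, coloured by family, with the mean and SD of 3 libraries in black. On this scale the OVCAR4 family lies between 2305 and 2913 for sterol enzymes, above every other library (on deposited TPM OVCAR4 and PEA2 overlap), whereas the families overlap for fatty acid enzymes.

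Among single members the distance between the highest and the lowest line mean was 2.33-fold for MVK, which phosphorylates mevalonate, and 47.7-fold for TM7SF2, a sterol C14-reductase. The median was 5.35-fold over the sterol enzymes, 3.93-fold over the fatty acid enzymes and 3.58-fold over the control genes. Within a line the coefficient of variation of the 3 libraries had a median of 14.4%, 22.5% and 18.6% over the members of these lists. For 13 of the 18 sterol enzymes the highest line belonged to the OVCAR4 family, and for 11 of 18 the lowest line was PEO1, PEO4 or PEO6. Members with the widest distances were HMGCS1, which makes HMG-CoA (31.4 ± 7.03 in PEO6 to 585 ± 67.5 in OVCAR4 ResA), LSS, which closes the sterol rings (4.36 ± 0.605 in PEO1 to 69.2 ± 16.9 in OVCAR4 ResB), MVD, which yields the first isoprenoid unit (4.47 ± 1.28 in PEO4 to 54.2 ± 4.54 in PEA2), and the desaturase FADS2. FADS2 was at 7.54 ± 0.791 in OVCAR4, 8.83 ± 1.66 in OVCAR4 ResA and 13.9 ± 5.43 in OVCAR4 ResB. In the other 8 lines its mean ran from 37.6 ± 21.3 in PEO4 to 194 ± 9.51 in PEA2, so the family with the highest sterol sums had the lowest FADS2.

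Sterol enzymes varied together over the 11 line means, with a median Pearson r of 0.61 over 153 gene pairs (log2 scale, range -0.74 to 0.93). For the 21 pairs of fatty acid enzymes the median was 0.02. Over libraries taken as distances from their line mean, the medians were 0.40 for sterol pairs, 0.58 for fatty acid pairs and 0.47 for sterol with fatty acid pairs (33 libraries). Once each line was taken as a distance from its family mean, the median was 0.21 for sterol pairs and 0.31 for fatty acid pairs, so the order of these lists turned. These values are descriptions: lines of one family are not independent, and libraries share depth and scaling over all genes.

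PEA2 showed the broadest change. Relative to PEA1, 16 of 30 members were called higher and 3 lower, where 23.3% of all genes were called higher and 23.8% lower. Sterol enzymes gave 9 higher and 3 lower calls of 18 (median log2 fold change 0.56), fatty acid enzymes 3 and 0 of 7 (0.52) and the control genes 4 and 0 of 5 (1.42), against a median of -0.02 over all genes tested and a middle 50% from -0.85 to 0.76. The share of members called higher was above that of all genes and the share called lower was below it.

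TM7SF2 (chromosome 11, 65111872 to 65116230, GRCh38.p14) was at 2.4, 2.09 and 2.17 adjusted TPM in PEA1 and at 21.9, 25.8 and 35.6 in PEA2. The difference was 12.6-fold (log2 fold change 3.65 ± 0.30 SE, adjusted p = 1.98e-33), and no library of one line came near the other. HMGCS1 (chromosome 5, 43287470 to 43313412) was at 55.7, 39 and 52.5 in PEA1 and at 516, 490 and 303 in PEA2, 8.98-fold higher (3.17 ± 0.27, adjusted p = 4.98e-31). Other sterol enzymes were called higher as well. DHCR7, which completes cholesterol from its last precursor, rose by 1.89 ± 0.24 on the log2 scale, SC5D, the sterol C5-desaturase, by 1.64 ± 0.22, and MVD by 1.75 ± 0.26. CYP51A1 (0.92), EBP (0.69), NSDHL (0.66) and HSD17B7 (0.65), which act between lanosterol and the last steps, completed the 9. HSD17B7 was called in none of the fits that left out 1 replicate number, and NSDHL only in that without replicate 3. CYP51A1 and EBP were lost without replicate 1. HSD17B7 has a near-identical pseudogene copy, so its count is less certain.

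ACAT2, IDI1 and PMVK were the 3 sterol enzymes called lower in PEA2. ACAT2 was at 129, 132 and 115 in PEA1 and at 76.9, 72.6 and 66.4 in PEA2 (log2 fold change -0.79 ± 0.22, adjusted p = 0.000998). IDI1, the isopentenyl diphosphate isomerase, was at 169, 179 and 162 and at 108, 107 and 81.2 (-0.78 ± 0.22, adjusted p = 0.00122), and PMVK, which phosphorylates phosphomevalonate, had a value of -0.76. The ranges of both lines were apart for ACAT2 and IDI1, and neither call held without replicate 1 (adjusted p = 0.0867 and 0.0588). The PMVK call was lost without replicate 1 and also without replicate 2. ACAT2 overlaps TCP1 and SOD2 in the annotation and IDI1 overlaps WDR37, and the use of strand in the counting was not stated, so their counts are less certain. The same holds for MVK, which overlaps MMAB, SREBF1, which overlaps RAI1, and ACACA, which overlaps C17orf78.

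Of the fatty acid enzymes the desaturases rose in PEA2. SCD, which makes monounsaturated fatty acids, was at 187, 97 and 211 in PEA1 and at 351, 295 and 367 in PEA2 (log2 fold change 1.12 ± 0.24, adjusted p = 1.87e-05). FADS1 (0.92 ± 0.22) and FADS2 (1.05 ± 0.31), which desaturate polyunsaturated fatty acids, were also called higher, and the FADS2 call was lost without replicate 2. FADS1 and FADS2 overlap each other in the annotation. The enzymes of chain building were not called: values were -0.43 for ACLY, which supplies acetyl-CoA, 0.28 for ACACA, the carboxylase, 0.52 for FASN, the synthase, and -0.15 for ELOVL6.

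Control genes rose together in PEA2. SREBF2 (chromosome 22, 41833105 to 41907305) was at 29.5, 17 and 33.8 in PEA1 and at 81.7, 78.4 and 69.3 in PEA2 (log2 fold change 1.58 ± 0.27, adjusted p = 1.96e-08). SREBF1 rose by 1.42 ± 0.24, INSIG1 by 1.02 ± 0.22 and STARD4, a carrier of cholesterol between membranes, by 1.49 ± 0.24, each with separate ranges. SCAP did not pass (0.22). Leaving out replicate 1 left 12 higher and no lower calls, and leaving out replicate 3 gave 19 higher and 3 lower calls. Epithelial markers moved in the same comparison, from a sum of 361 to 471 in PEA1 to 3426 to 3968 in PEA2. The sum of the leukocyte markers PTPRC and CD68 was 10.9 to 20.7 in PEA1 and 49.9 to 55.5 in PEA2. In PEA1, 1 of these 2 was at 3 counts or fewer, so the other made up that sum. Fibroblast markers moved the other way, from 71.6 to 87.1 down to 0.691 to 1.09. The part of the cell type markers in these differences was not tested.

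**Figure D3:**
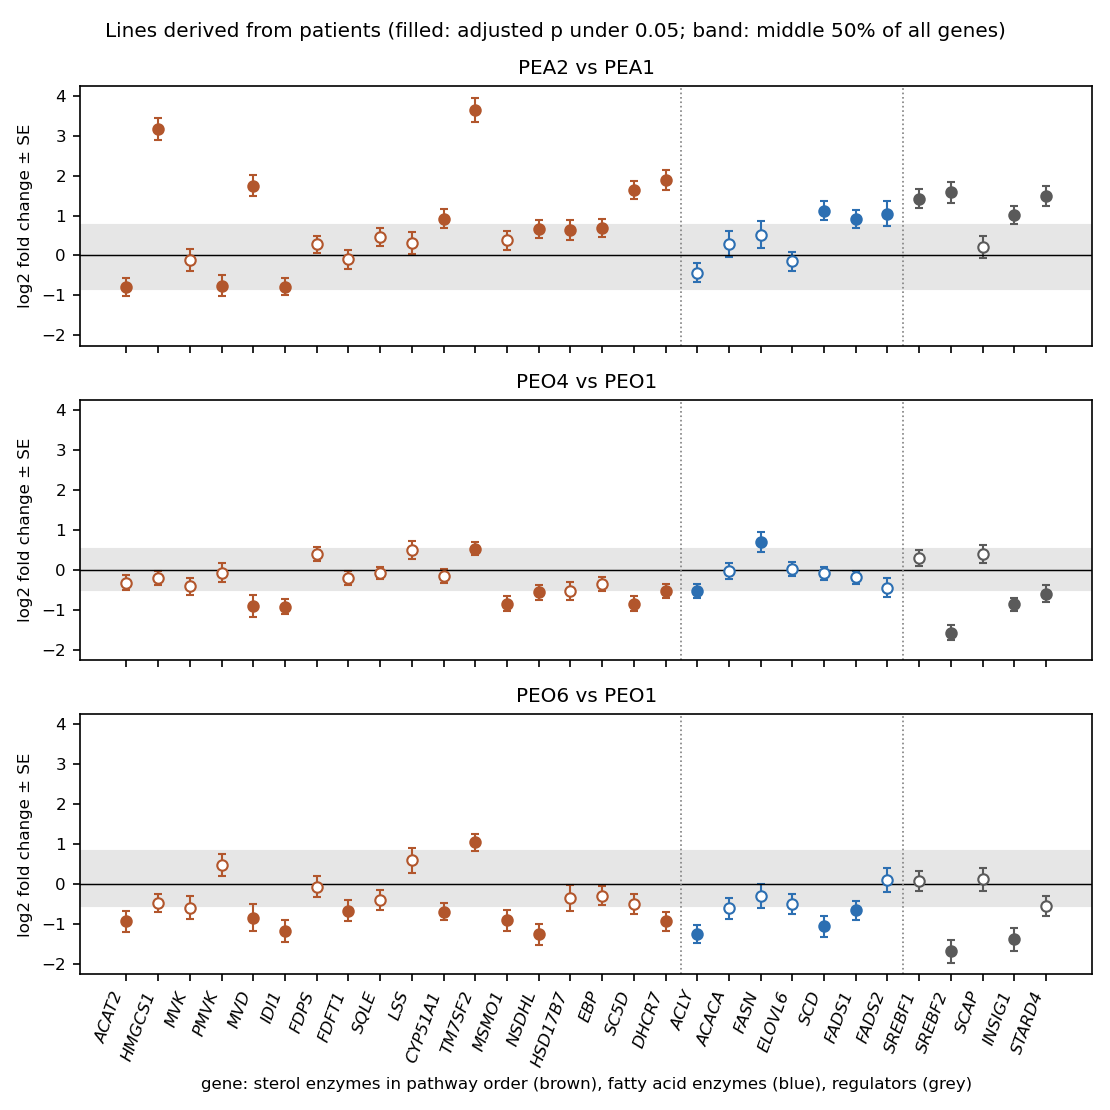
Log2 fold change with its SE for each member in PEA2 vs PEA1, PEO4 vs PEO1 and PEO6 vs PEO1 (3 libraries a line), with sterol enzymes in pathway order in brown, fatty acid enzymes in blue and control genes in grey, filled where called. The grey band is the middle 50% of all genes. HMGCS1 (3.17) and TM7SF2 (3.65) stand out in PEA2, SREBF2 is the lowest point in PEO4 (-1.58) and in PEO6 (-1.69), and TM7SF2 is above 0 in all 3 panels.

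In the PEO family the called members were mostly lower in the resistant lines. In PEO4, 2 members were called higher and 10 lower than in PEO1, where 16.6% and 16.7% of all genes were called. In PEO6, 1 was called higher and 13 lower, where 21.2% and 20.3% of all genes were. Both comparisons share the PEO1 libraries. Sterol enzymes gave 1 higher and 6 lower calls in PEO4 (median log2 fold change -0.34) and 1 and 8 in PEO6 (-0.55). Fatty acid enzymes gave 1 and 1 in PEO4 (-0.09) and 0 and 3 in PEO6 (-0.61), and control genes 0 and 3 (-0.60) and 0 and 2 (-0.55). Medians over all genes were 0.01 and 0.02.

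SREBF2 had the largest decrease in both lines. It was at 49.7, 36.5 and 29.8 adjusted TPM in PEO1, at 17.8, 14.8 and 7.24 in PEO4 and at 9.87, 10.4 and 16.8 in PEO6. The difference was 2.98-fold in PEO4 (log2 fold change -1.58 ± 0.19, adjusted p = 9.72e-15) and 3.22-fold in PEO6 (-1.69 ± 0.28, adjusted p = 2.87e-08), and every PEO1 library lay above every library of both resistant lines. Both calls held under each of the 11 alternatives tried. INSIG1 (chromosome 7, 155297878 to 155310235) was at 53, 59.6 and 54.8 in PEO1, at 29.6, 28 and 31.9 in PEO4 and at 28.7, 13.3 and 26.9 in PEO6, lower by 1.83-fold (-0.87 ± 0.17, adjusted p = 3.5e-06) and 2.62-fold (-1.39 ± 0.28, adjusted p = 4.64e-06). STARD4 had -0.60 ± 0.21 in PEO4, a call that was lost without replicate 1 or 2 (adjusted p = 0.357 and 0.231), and -0.55 ± 0.24 in PEO6, which did not pass (adjusted p = 0.0586). SREBF1 (0.29 and 0.07) and SCAP (0.40 and 0.12) were called in neither.

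IDI1 was at 143, 154 and 106 in PEO1 and at 64, 67.2 and 74.3 in PEO4 (log2 fold change -0.93 ± 0.19, adjusted p = 6.88e-06), and had -1.18 ± 0.27 in PEO6. Both lines were also called lower for MVD (-0.91 and -0.85), MSMO1, the sterol C4-methyl oxidase (-0.85 and -0.91), NSDHL, the C4-decarboxylating dehydrogenase (-0.57 and -1.26), and DHCR7 (-0.54 and -0.93). With 1 replicate number left out, MVD was called in either line only without replicate 3. In PEO4, NSDHL was called in none of those fits, and DHCR7 was lost without replicate 1. In PEO6, MSMO1 was lost without replicate 2, and NSDHL and DHCR7 held in each. SC5D was called only in PEO4 (-0.85), and ACAT2 (-0.94), FDFT1, the squalene synthase (-0.67), and CYP51A1 (-0.69) only in PEO6. The SC5D call was lost without replicate 1 and the ACAT2 call without replicate 2. FDFT1 and CYP51A1 held only in the fit without replicate 3. In the direct comparison of PEO6 with PEO4, SC5D had 0.34, ACAT2 -0.63, FDFT1 -0.47 and CYP51A1 -0.55, none of them called. TM7SF2 went the other way, at 48.2, 51.7 and 46.8 in PEO1, 71.3, 74.4 and 62.8 in PEO4 and 88.8, 120 and 101 in PEO6 (0.53 ± 0.17, adjusted p = 0.00766, and 1.04 ± 0.22, adjusted p = 1.63e-05), and its 3 lines did not overlap. The call in PEO4 was lost in 4 of 11 alternatives, without replicate 1 (adjusted p = 0.247) or 2 (0.133), with all libraries in one fit (0.111) and with limma on deposited TPM (0.0732), and that in PEO6 held in all 11.

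Of the fatty acid enzymes, ACLY was at 153, 131 and 174 in PEO1, 111, 106 and 93.6 in PEO4 and 60.6, 48.2 and 92.4 in PEO6 (log2 fold change -0.53, called, and -1.26 ± 0.22, adjusted p = 8.2e-08). SCD (-1.06 ± 0.26) and FADS1 (-0.66) were called lower in PEO6 and had -0.09 and -0.19 in PEO4. FASN was called higher in PEO4 (0.70 ± 0.25, adjusted p = 0.0173), with overlapping libraries at 78.2, 40.2 and 68.4 in PEO1 and 137, 108 and 58.6 in PEO4, and this call held in 3 of 11 alternatives. The counts moved when 1 replicate number was left out of both lines. In PEO4, 4 members were called without replicate 1, 7 without replicate 2 and 15 without replicate 3, and in PEO6 7 were called without replicate 2. Each of these fits also held fewer libraries.

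Between the resistant lines PEO6 and PEO4, 1 member was called, where 9.86% of all genes were called higher and 8.33% lower. SCD was at 294, 274 and 169 in PEO4 and at 150, 83.9 and 163 in PEO6 (log2 fold change -0.97 ± 0.35, adjusted p = 0.0316). The ranges were narrowly apart, and the call held in 5 of 11 alternatives. Without replicate 3, 12 members were called lower in PEO6, among them ACLY, FASN, SREBF2 and DHCR7, and without replicate 1 or 2 none was. The share of all genes called in those fits was not counted.

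PEA2 and PEO6, which share no library, went in opposite directions for a group of members. CYP51A1, DHCR7, FADS1, INSIG1, MVD, NSDHL, SCD and SREBF2 were called higher in PEA2 and lower in PEO6, 8 of 30 members, where 6.43% of all genes were. DHCR7, INSIG1 and SREBF2 kept both calls in every fit that left out 1 replicate number. In PEO6, CYP51A1, FADS1 and MVD were called neither without replicate 1 nor without replicate 2, and SCD was lost without replicate 2. In PEA2, NSDHL was called neither without replicate 1 nor without replicate 2, and CYP51A1 was lost without replicate 1. This pattern was chosen for display after the values had been seen.

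For 4 of these genes the 250 bases before the transcription start are shown (RefSeq, GRCh38.p14, 5′ to 3′ on the strand of the gene), because their transcripts moved in opposite directions in the PEA and PEO families. Capitals mark the CCAAT letters of the NF-Y motif, on either strand, and in SREBF2 also the sterol element TCACNCCAC.
SREBF2, chr22:41832855-41833104, plus strand: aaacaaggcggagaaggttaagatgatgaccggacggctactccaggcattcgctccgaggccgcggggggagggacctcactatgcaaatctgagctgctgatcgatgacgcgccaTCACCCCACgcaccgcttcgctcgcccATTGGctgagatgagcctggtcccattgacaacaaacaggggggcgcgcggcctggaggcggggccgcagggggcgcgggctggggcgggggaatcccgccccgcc
INSIG1, chr7:155297628-155297877, plus strand: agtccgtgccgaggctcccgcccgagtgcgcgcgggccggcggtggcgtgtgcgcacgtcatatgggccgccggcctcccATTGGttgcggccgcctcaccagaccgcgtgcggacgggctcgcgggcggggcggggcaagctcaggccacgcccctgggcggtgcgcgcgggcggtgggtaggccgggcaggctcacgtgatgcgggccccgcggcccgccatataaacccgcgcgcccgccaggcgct
MVD, chr16:88663092-88663341, minus strand: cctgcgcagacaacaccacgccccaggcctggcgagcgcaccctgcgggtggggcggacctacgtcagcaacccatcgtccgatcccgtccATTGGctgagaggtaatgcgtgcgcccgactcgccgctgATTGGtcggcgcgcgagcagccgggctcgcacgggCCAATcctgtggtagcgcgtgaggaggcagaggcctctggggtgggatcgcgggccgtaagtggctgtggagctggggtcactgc
NSDHL, chrX:152830813-152831062, plus strand: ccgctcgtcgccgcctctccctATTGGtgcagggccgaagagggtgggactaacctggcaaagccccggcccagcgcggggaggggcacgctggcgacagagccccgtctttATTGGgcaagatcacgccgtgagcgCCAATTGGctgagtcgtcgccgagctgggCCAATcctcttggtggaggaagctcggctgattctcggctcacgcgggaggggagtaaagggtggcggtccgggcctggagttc

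SREBF2 held the sterol element with its first base at position -133 and a CCAAT at -106 relative to the start. Its window overlaps the antisense gene SREBF2-AS1, and that of INSIG1 overlaps INSIG1-DT. MVD had 3 CCAAT matches and NSDHL had 5, of which 2 share bases with each other. Of the 26 members with an entry, 19 (73.1%) held a CCAAT, against 37% of 27305 genes with entries, and the split was 13 of 15 sterol enzymes, 3 of 6 fatty acid enzymes and 3 of 5 control genes. The GC box GGGCGG, read on both strands, was held by 25 members (96.2%) against 46.2% of genes, and the sterol element by 1 against 1.09%. A match to a few letters describes a window and not a bound site. ACAT2, FDFT1, SQLE and FASN had no entry.

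In OVCAR3 ResA, 6 members were called higher and 10 lower than in OVCAR3, where 22% and 22.9% of all genes were. Sterol enzymes gave 4 higher and 6 lower calls (median log2 fold change -0.18), fatty acid enzymes 1 and 3 (0.06) and control genes 1 and 1 (0.10). The sterol enzymes that fell were ACAT2 (-0.28), HMGCS1, FDFT1 (-0.46), SQLE, the squalene epoxidase (-0.68), CYP51A1 and TM7SF2 (-0.55). Those that rose were MVD, IDI1 (0.46), MSMO1 (0.33) and SC5D (0.32). ACAT2 and SC5D were called in none of the fits that left out 1 replicate number, and MSMO1 only in that without replicate 2. Calls in both directions remained within one pathway, with CYP51A1 and HMGCS1 lower and MVD higher in each of those fits.

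CYP51A1, the lanosterol demethylase, was at 64.7, 64.1 and 66.4 adjusted TPM in OVCAR3 and at 31.6, 31.7 and 33.1 in OVCAR3 ResA, 1.99-fold lower (SE 0.11 on the log2 scale, adjusted p = 2.82e-19). HMGCS1 was at 341, 273 and 274 and at 131, 150 and 169 (-0.95 ± 0.12, adjusted p = 3.52e-13). The libraries of both lines were far apart for each gene. MVD rose from 12, 11 and 15.1 to 19, 24.1 and 22.6 (0.81 ± 0.17, adjusted p = 7.04e-06), and STARD4 from 14.5, 16.4 and 17.5 to 26.8, 27.4 and 28.1 (0.75 ± 0.12, adjusted p = 7.71e-10). These 4 calls held under all 11 alternatives.

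SCD (-0.82 ± 0.11), ELOVL6 (-0.47) and FADS2 (-0.47) were called lower in OVCAR3 ResA and ACACA higher (0.67), with FASN at 0.18, ACLY at 0.14 and FADS1 at 0.06. SREBF1 was at 27.6, 30.6 and 36.9 in OVCAR3 and at 18, 23.6 and 27.5 in OVCAR3 ResA (-0.46 ± 0.11, adjusted p = 0.000155). Its ranges were narrowly apart, and the call ended without the replicate block (adjusted p = 0.11) and without replicate 1 (0.0538). SREBF2 (0.15), INSIG1 (-0.11) and SCAP (0.10) were not called. In this pair same-numbered libraries deviated together, and without the replicate block 8 members were called in place of 16.

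In OVCAR3 ResB no member was called, where 4.1% of all genes were called higher and 3.57% lower (DESeq2, adjusted over all genes). edgeR called none as well, and 1 member had an unadjusted p under 0.05 in DESeq2. Log2 fold changes lay between -0.63 for MSMO1 and 0.66 for FADS1, with a median of -0.30 over sterol enzymes and 0.43 over fatty acid enzymes. Its 3 libraries were spread widely, for example at 356, 132 and 186 for HMGCS1 and at 34.6, 27.4 and 57.1 for SREBF2, and their mitochondrial rRNA share was 5.97%, 8.88% and 1.12%. Without replicate 3, 4 members were called, FADS1 higher and DHCR7, LSS and MSMO1 lower.

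Compared directly with OVCAR3 ResA, OVCAR3 ResB had 2 members called higher and 2 lower, against 7.47% and 6.04% of all genes. CYP51A1 was at 56.4, 57.8 and 65.4 in ResB and at 31.6, 31.7 and 33.1 in ResA (log2 fold change 0.89 ± 0.33, adjusted p = 0.0487), and FADS2 was at 113, 68.5 and 128 against 66.2, 41.7 and 39.7 (1.04 ± 0.36, adjusted p = 0.0308). STARD4 was at 16, 10.7 and 14.5 against 26.8, 27.4 and 28.1 (-1.09 ± 0.35, adjusted p = 0.0184), and MSMO1 at 73.5, 50.7 and 85.5 against 165, 114 and 128 (-0.97 ± 0.34, adjusted p = 0.0376). All 4 had separate ranges, but each call was lost with edgeR (adjusted p from 0.076 to 0.112) and without replicate 1 or 2.

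**Figure D4:**
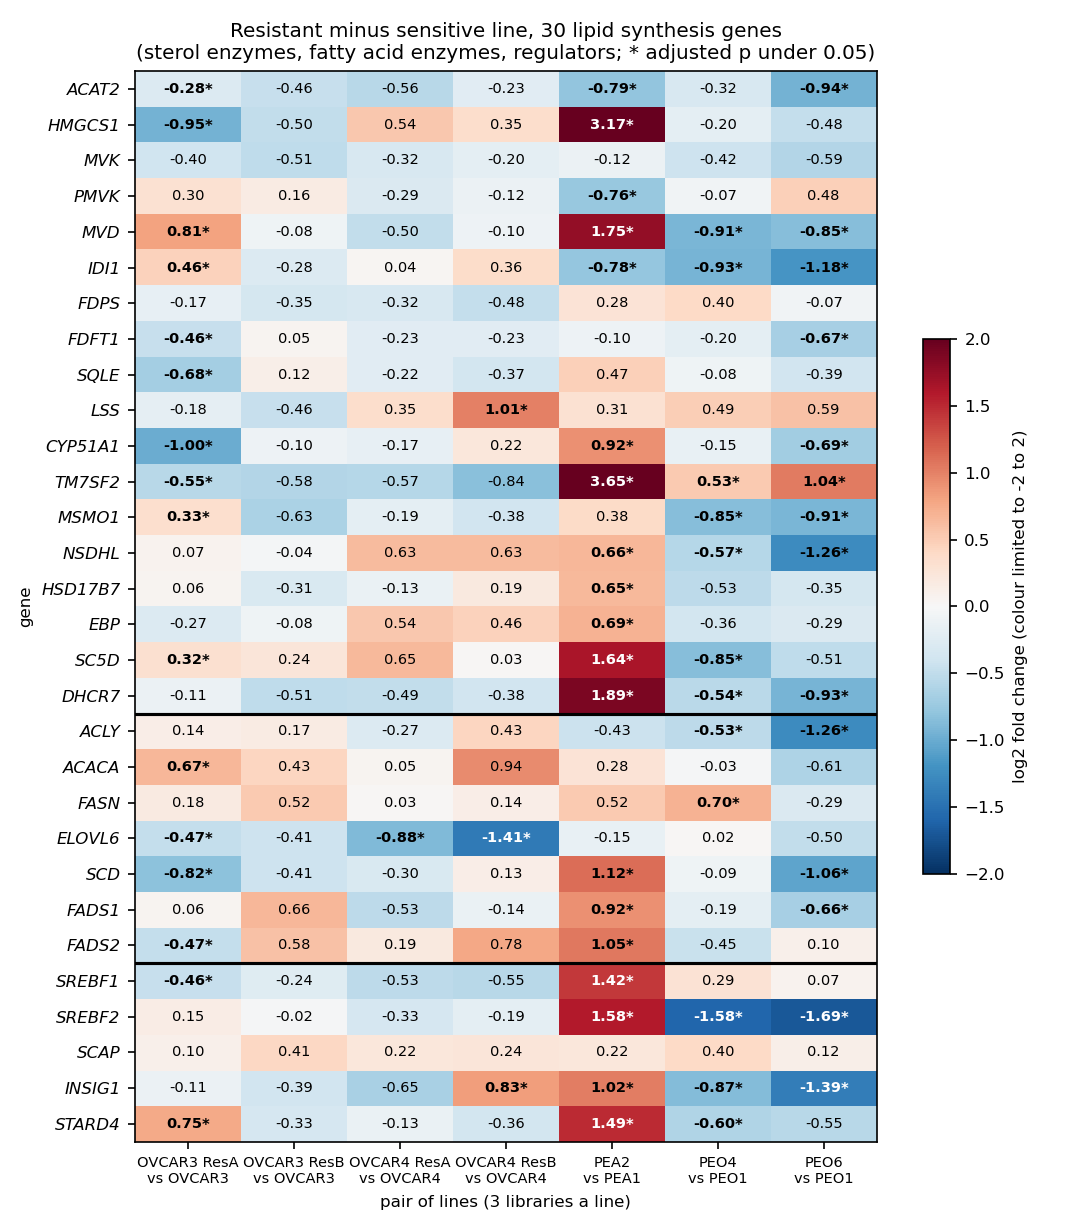
Log2 fold change of the resistant over the sensitive line for each of the 30 members (rows: sterol enzymes, fatty acid enzymes, control genes) in the 7 pairs (columns), with called values in bold and starred. Colour is limited to -2 to 2. The PEA2 column is mostly red, the PEO4 and PEO6 columns mostly blue, and the OVCAR3 ResB column holds no star.

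In the OVCAR4 family few members passed against the sensitive line. OVCAR4 ResA had 0 called higher and 1 lower, where 6.68% and 5.22% of all genes were called, and OVCAR4 ResB had 2 and 1, where 9.09% and 8.77% were. Both comparisons share the OVCAR4 libraries. These counts depended on the replicate block: without it 7 members were called in ResA and 6 in ResB, and with all libraries in one fit 6 and 5. For these alternative fits the share of all genes called was not counted. Same-numbered libraries did not deviate together in these pairs (correlations of -0.502 to -0.0567). ELOVL6 (chromosome 4, 110045846 to 110199202) was lower in both. It was at 53.3, 48.8 and 60.9 in OVCAR4, at 26.2, 34.2 and 29.2 in ResA and at 16.9, 22.1 and 22.8 in ResB, and the 3 lines did not overlap. The difference was 1.84-fold in ResA (log2 fold change -0.88 ± 0.31, adjusted p = 0.0397), a call that held in 4 of 11 alternatives, and 2.66-fold in ResB (-1.41 ± 0.31, adjusted p = 0.000122), which held in 9 of 11.

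LSS was at 31.3, 36.9 and 31 in OVCAR4 and at 49.7, 80.4 and 77.3 in OVCAR4 ResB, 2.02-fold higher (log2 fold change 1.01 ± 0.32, adjusted p = 0.012). INSIG1 was at 62, 87.3 and 79 and at 140, 140 and 122, 1.77-fold higher (0.83 ± 0.30, adjusted p = 0.0338). Ranges were separate for both, and both calls were lost with edgeR (adjusted p = 0.0742 and 0.0935) and without replicate 2 or 3. SREBF2 (-0.33 in ResA and -0.19 in ResB), SREBF1 (-0.53 and -0.55), SCAP (0.22 and 0.24) and STARD4 (-0.13 and -0.36) were not called, and sterol medians were -0.21 and -0.11.

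Leaving out replicate 1 from both lines moved both comparisons with OVCAR4. Then 5 members were called higher and 7 lower in OVCAR4 ResA, with HMGCS1, LSS and NSDHL among the higher and ACAT2, ELOVL6 and INSIG1 among the lower. In OVCAR4 ResB 7 were called higher and 4 lower, with ACACA, ACLY and LSS among the higher and ELOVL6 and SQLE among the lower. Shares of all genes called in these fits were not counted, so these counts do not single out the members. Replicate 1 had a mitochondrial rRNA share of 5.18% in OVCAR4, 9.23% in ResA and 13.1% in ResB, whereas replicates 2 and 3 had 14.8% and 12% in OVCAR4 and 2.02% to 2.47% in the resistant lines. The part of this difference in the counts of calls was not tested.

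In the separate fits with the replicate block, more members were called between OVCAR4 ResB and OVCAR4 ResA than between either of them and OVCAR4. All genes had the same order in these fits. Their shares called higher and lower against OVCAR4 were 6.68% and 5.22% in ResA and 9.09% and 8.77% in ResB, below those between the derivatives. For the members this order turned without the block and with all libraries in one fit. In the direct comparison 11 members were called higher and 2 lower in ResB, where 16.2% and 16.5% of all genes were called. Of 7 fatty acid enzymes 5 were higher and 1 lower (median log2 fold change 0.43), and of 18 sterol enzymes 5 were higher and 1 lower (0.06). INSIG1 was at 140, 140 and 122 in ResB and at 50.6, 56.5 and 39.9 in ResA, 2.79-fold higher (1.48 ± 0.10, adjusted p = 1.9e-43), with no overlap and under all 11 alternatives. ACLY (0.70), FADS2 (0.60), SCD (0.43) and FADS1 (0.40) were higher, as were LSS (0.66), MVD (0.40), CYP51A1 (0.39), ACAT2 (0.34) and IDI1 (0.33). SREBF2 (0.15), SREBF1 (-0.02), SCAP (0.02) and STARD4 (-0.21) were not called.

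ACACA was at 21.9, 63 and 66.3 in ResB and at 13.9, 32.4 and 35.4 in ResA. The lines overlapped, but ResB was higher in each same-numbered pair (log2 fold change 0.89 ± 0.09, adjusted p = 6.83e-20), and without the replicate block the call was lost (adjusted p = 0.361). SC5D was at 33.8, 40.5 and 36.8 against 42.4, 66.7 and 65.4 (-0.61 ± 0.13, adjusted p = 1.91e-05), and ELOVL6 was lower too (-0.52 ± 0.12, adjusted p = 7.27e-05). Same-numbered libraries of these lines deviated together. Without the block 1 of the 30 members was called, INSIG1, in place of 13, and without replicate 2 the count was 5.

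**Figure D5:**
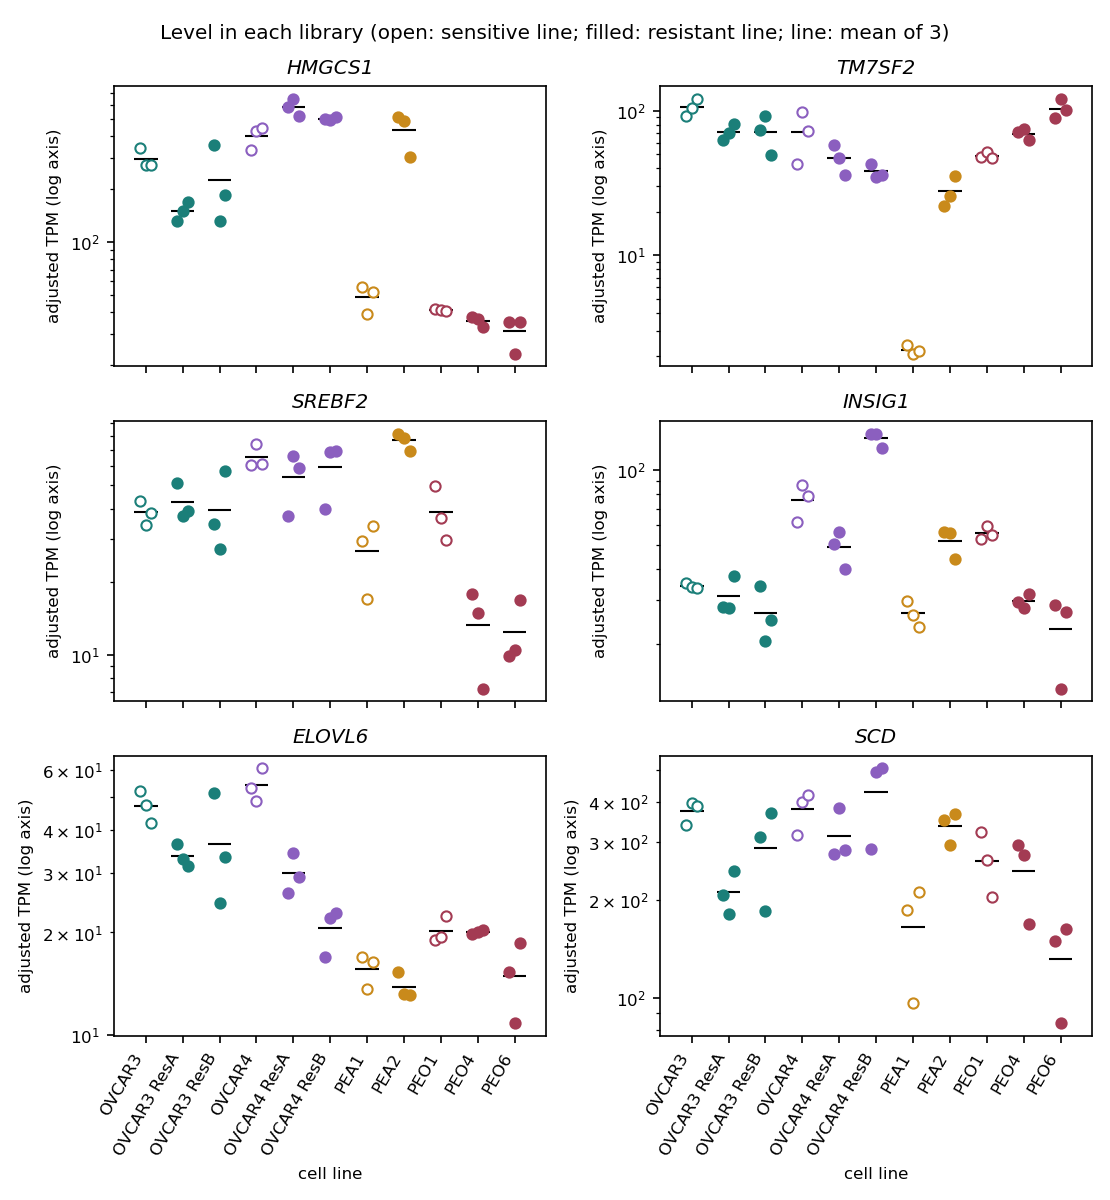
Adjusted TPM (log axis) of 6 members in each library of the 11 lines, open for sensitive and filled for resistant lines, with the mean of 3 libraries as a bar. HMGCS1 and TM7SF2 are low in PEA1 (49.1 and 2.22) beside PEA2 (437 and 27.7), SREBF2 is lowest in PEO4 and PEO6, INSIG1 is highest in OVCAR4 ResB, and ELOVL6 is lower in both OVCAR4 derivatives than in OVCAR4.

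A further 31 genes of the same biology, listed by role, were counted in the same fits. In PEA2, 12 were called higher and 5 lower, in PEO4 5 and 10, in PEO6 4 and 11 and in OVCAR3 ResA 8 and 10. OVCAR3 ResB had 2 and 0, OVCAR4 ResA 3 and 1 and OVCAR4 ResB 2 and 1. In PEO4 and PEO6 16 of the 31 were not called, and in PEA2 14. The shares of all genes called higher and lower were 23.3% and 23.8% in PEA2, 16.6% and 16.7% in PEO4, 21.2% and 20.3% in PEO6 and 22% and 22.9% in OVCAR3 ResA. None of the 31 was called at the level of lines or in one direction in 5 or more pairs. By group, other genes linked to sterol regulatory element-binding proteins gave 5 higher and 0 lower calls of 10 in PEA2 and 1 and 2 in PEO6, other fatty acid genes 5 and 3 of 15 and 1 and 7, and genes of sterol storage and of the oxysterol-sensing LXR receptors 2 and 2 of 6 in each.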

How the data were processed

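Messenger RNA was measured by poly(A)-selected RNA sequencing in 33 libraries of 11 HGSOC lines, 3 per line, grouped by the cell line and replicate in the labels. The estimated counts deposited by the authors came from salmon in the nf-core RNA-seq pipeline against GRCh38, per the study's methods, and were not normalised. The TPM deposited by the authors divided these by effective gene length and scaled each library to one sum. The strand setting was not given in the sources used here. The labels named no batch, and the study's text described its line panel as one batch without saying whether the resistant derivatives were in it. The same pool was sequenced over several runs.

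Members and lists were chosen with earlier results of these data known. Counts were rounded and tested across all genes with DESeq2 1.42.0 in R 4.3.3 (Wald test, median-of-ratios factors, no filter, 6 libraries per comparison, replicate number as a block, as in the study's methods), with Benjamini-Hochberg adjustment. Calls had an adjusted p under 0.05. Levels are TPM divided by a median-of-ratios factor over 13075 genes (0.708 to 1.34). Deposited TPM differed from this scaling by a log2 shift over all genes of up to 0.50 in OVCAR4 ResA and 0.55 in OVCAR4 ResB, 0.16 and 0.12 in OVCAR3 ResA and ResB and -0.11 in PEA2. Alternatives were edgeR 4.0.16, TMM factors, a count filter, one fit of all libraries, no block, limma 3.58.1 on log2(TPM + 1) or log2(TPM + 0.1), and leaving out each replicate number from every line compared. Shares of all genes called were not counted for these alternatives. The limma filter (TPM of at least 1 in 3 libraries) was added after tests on simulated data. Whether replicate numbers paired the libraries was examined through correlated deviations from line means. The lowest of the 3 correlations passed 0.1 for OVCAR3 ResA with OVCAR3 (0.765, 0.351 and 0.555) and for the OVCAR4 derivatives with each other (0.653, 0.503 and 0.536), and in none of the other 8 comparisons. Libraries of one line differed by more than counting noise (chi-square per degree of freedom of at least 32.8).

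Library values were given, per comparison, for up to 2 members with the largest increase and 2 with the largest decrease among called members whose normalised counts averaged 100 or more and whose sign was the same in all 3 same-numbered library pairs, and for the control genes. Other values were added to describe their lists. Promoter windows and positions are from RefSeq, GRCh38.p14.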

Additional observations from a re-analysis of the deposited data

Results flagged for a closer look

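Among the 4 sensitive lines, 3 members had a line whose mean stood far from the others, by a gap test on 60 groups of means (each member among the sensitive and among the resistant lines), of which chance sets apart about 1 in 20. The 3 lines set apart in 60 groups are about the number that this rate gives. LSS was lowest in PEO1, at 4.36 ± 0.605 adjusted TPM (SD, n = 3), with the next line, PEA1, at 25.6, a gap of 0.867 of the whole range. It was also low in PEO4 (6.15 ± 1.85) and PEO6 (7.15 ± 3.54). CYP51A1 was highest in OVCAR4, at 205 ± 16.7 with PEO1 next at 72.4 (0.908 of the range), and was at 184 ± 25.2 in OVCAR4 ResA and 237 ± 6.74 in OVCAR4 ResB. ACACA was lowest in OVCAR3, at 10.3 ± 2.38 with PEO1 next at 24.7 (0.896 of the range), and was at 16 ± 3.58 in OVCAR3 ResA and 15.6 ± 10.1 in OVCAR3 ResB. No test was run on these differences between families.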

How the results depend on the processing

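No named call changed sign. The count filter moved none of the 10 counts of called members by over 1.5 times. Without the replicate block, members called were 8 in place of 16 in OVCAR3 ResA, 7 in place of 1 in OVCAR4 ResA, 6 in place of 3 in OVCAR4 ResB, 7 in place of 4 in OVCAR3 ResB against ResA, 1 in place of 13 in OVCAR4 ResB against ResA and 3 in place of 1 in PEO6 against PEO4, and the block moved no other count that far. With edgeR the count was 1 in OVCAR4 ResB and 0 for OVCAR4 ResA, for PEO6 against PEO4 and for OVCAR3 ResB against ResA, and with TMM factors 0 in OVCAR4 ResA. With all libraries in one fit they were 6 in OVCAR3 ResA, 1 in OVCAR3 ResB, 5 in OVCAR4 ResB, 6 in OVCAR4 ResA, 8 in OVCAR3 ResB against ResA, 3 in OVCAR4 ResB against ResA and 6 in PEO6 against PEO4. With limma on deposited TPM they were 7 in PEO4 and 0 for both OVCAR4 derivatives, for PEO6 against PEO4 and for OVCAR3 ResB against ResA. With limma on adjusted TPM, at either pseudocount, OVCAR4 ResB gave 1 and OVCAR4 ResA, OVCAR3 ResB against ResA and PEO6 against PEO4 gave 0. The causes of these shifts were not tested.

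Leaving out 1 replicate number gave 12 to 14 members in OVCAR3 ResA, 0 to 4 in OVCAR3 ResB, 0 to 12 in OVCAR4 ResA, 0 to 11 in OVCAR4 ResB, 12 to 22 in PEA2, 4 to 15 in PEO4, 7 to 16 in PEO6, 0 to 9 in OVCAR3 ResB against ResA, 5 to 14 in OVCAR4 ResB against ResA and 0 to 12 in PEO6 against PEO4. At the level of lines the count was 0 under every alternative run. On deposited TPM the sterol sum was 1405 in OVCAR3, 2063 in OVCAR4, 3016 in OVCAR4 ResA and 3152 in OVCAR4 ResB, and the fatty acid sum 595 in OVCAR3, 624 in OVCAR4, 752 in OVCAR4 ResA, 1072 in OVCAR4 ResB and 900 in PEA2, which turned the order of OVCAR4 ResB and PEA2 and of OVCAR4 and OVCAR4 ResA. In 100 bases before the start, 50% of member promoters held CCAAT (21.6% of all genes), 65.4% the GC box and 0 the sterol element.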

Other observations

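Among further lipid genes, described after their values had been seen, ACSS2, which makes acetyl-CoA from acetate, had a log2 fold change of 3.29 ± 0.25 in PEA2 (adjusted p = 3.47e-38, DESeq2) and INSIG2, a relative of INSIG1, 2.31 ± 0.24, whereas ACACB, the mitochondrial acetyl-CoA carboxylase, had -5.49 ± 0.48. MBTPS2, the site-2 protease that releases active sterol regulatory element-binding proteins, had 4 calls, all of them higher in the resistant line. The share of all genes with this pattern was not counted, and the calls in OVCAR4 ResA and OVCAR4 ResB share the OVCAR4 libraries. In OVCAR3 ResA the MBTPS2 ranges overlapped. That call was lost in DESeq2 without the replicate block (adjusted p = 0.199) and with all libraries in one fit (0.265). MBTPS2 libraries in the OVCAR4 family were at 7.74, 3.9 and 3.84 adjusted TPM in OVCAR4, 10.2, 29 and 28.5 in OVCAR4 ResA and 8.28, 23.1 and 24 in OVCAR4 ResB. The calls of 2.08 ± 0.51 in ResA and 1.80 ± 0.52 in ResB held in 5 of 11 alternatives each. ABCG1, a sterol exporter, had 2 higher and 4 lower calls, at line means of 0.0459 ± 0.0486 (PEA1) to 5.67 ± 1.31 adjusted TPM (OVCAR3 ResB).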
